A study of Homo sapiens with 4 samples.

Results

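The HOX genes of all 4 clusters were followed in THP1, a human monoblastic AML cell line that carries the MLL-AF9 fusion gene, after transfection of a miR-511 mimic. Members were all non-control probes whose gene name on the array is HOXA, HOXB, HOXC or HOXD followed by a number. This gave 43 probes for 39 genes among 34127 probes with 27193 gene names, with 11 genes of HOXA, 10 of HOXB, 9 of HOXC and 9 of HOXD. HOXA9, HOXA10, HOXB2 and HOXD9 had 2 probes each, and of these the probe with the higher mean signal was followed. Each treatment had 2 arrays from 2 independent experiments, and each experiment gave 1 array of cells with 30 nM miR-511 mimic and 1 of cells with 30 nM negative control #1 mimic. All cells were THP1, received the mimic once, were kept in low-serum medium and were harvested on day 2, so the results hold for 1 cell line and 1 time point. A mimic is a short double-stranded RNA made to act as the mature miRNA once in the cell, and the question was which transcripts depend on miR-511 in monoblasts.

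HOX proteins are homeodomain transcription factors that give cells their place along the body axis during development. The genes lie in clusters, and the number in a gene's name follows its order in the cluster, with low numbers at the end that is used first and most anteriorly in the embryo. In blood, many HOXA and HOXB genes are used in stem and early progenitor cells and are switched off as cells mature. MLL, the histone methyltransferase that keeps HOX genes on, is the gene that is fused in many acute leukemias, and HOXA9 with its partner MEIS1 is the best known set of targets of MLL fusions.

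The mature miR-511-5p is encoded at chr10:17845122-17845142 on the plus strand of GRCh38.p14 (RefSeq). It is shown with its seed, bases 2 to 8, in capitals, because targets of a miRNA are usually recognized through the complement of the seed.

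hsa-miR-511-5p: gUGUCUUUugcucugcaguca

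The complement of that seed reads AAAGACA in DNA letters. It was found in 1 of 43 HOX probes (2.33%), against 331 of all 34127 probes (0.97%). The shorter match AAGACA was found in 2 HOX probes (4.65%), against 966 of all probes (2.83%). Both were searched in the 60-base probe sequences as deposited, in the given orientation only. The 30 bases around each HOX match are shown with the match in capitals, since they are the places in these probes where a seed match can be seen.

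HOXA4 probe window: ttgcatttatttAAGACActgttacagaga

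HOXD4 probe window: AAAGACAacacgagaaaaattagtattttc

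HOXA4 is a gene with signal and HOXD4 one without, so only the former has a difference between mimics that could be measured (given with the other HOXA genes). A match in a probe is a description of the probe and not of a binding site. Full transcripts, and whether a probe lies in coding sequence or a UTR, were not analysed here.

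The signal of a spot is given as log2 of the background-subtracted intensity after quantile normalization, which gives every array the same distribution of values. A probe was taken as detected where the scanner software marked it well above background. Between 64.8% and 69.3% of all probes were marked so per array, and no spot was saturated. Of the 4 arrays, the miR-511 array of experiment 1 stood apart: 691 of 22638 tested probes were lower on it than on each of the other 3 arrays by more than 0.5 (3.05%), against 0.601% to 1.1% for the other arrays, so HOX and CDX1 values that rest on it are also given without it. The monoblast label was checked on 10 marker genes, among them CD33, MPO, ELANE, SPI1 and CEBPA, and all 10 were well above background on all 4 arrays. Of 17 markers of T, B, erythroid, epithelial and fibroblast cells, 7 were so on all arrays and 8 on none, with EPCAM, CDH1, COL1A1, COL1A2 and COL3A1 among the latter. The sum of the normalized signals of these 17 markers, on the linear scale, was 2621 to 2755 with miR-511 and 2484 to 2642 with the control mimic. That of the monoblast markers was 286674 to 327491 and 309723 to 320305, and their median log2FC between mimics was 0.07. Both sums overlapped between treatments. The part of these markers in the HOX values was not tested.

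Of the 39 HOX genes, 17 were well above background on all 4 arrays (43.6%), 17 on no array and 5 on 1 array. By probe, 19 of 43 (44.2%) were so on all 4 arrays, below the 63.4% of all probes on the array. On no array were 19 HOX probes (44.2%) well above background, against 28.8% of all probes. No HOX probe was detected on 2 or 3 arrays. Most of all 34127 probes were also detected on all 4 arrays or on none, so this count does not set the HOX genes apart.

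The clusters differed in this respect. In HOXA, 9 of 11 genes (81.8%) were detected on all arrays, and they formed an unbroken row from HOXA3 to HOXA13. In HOXB these were 4 of 10 genes (40.0%), namely HOXB3, HOXB4, HOXB6 and HOXB13, and in HOXC 4 of 9 genes (44.4%), namely HOXC4, HOXC6, HOXC9 and HOXC10. In HOXD, no gene of 9 was detected on all arrays. These counts describe 1 cell line, and no test was run on them.

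By position number, HOXA2, HOXB1, HOXB2 and HOXD1 at the low end were not detected on all arrays. Of the 15 genes numbered 3 to 7, 10 were, and of the 19 genes numbered 8 to 13, 7 were. Position 6 was detected in every cluster that has it (HOXA6, HOXB6 and HOXC6), and positions 8 and 12 in none.

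**Figure D1:**
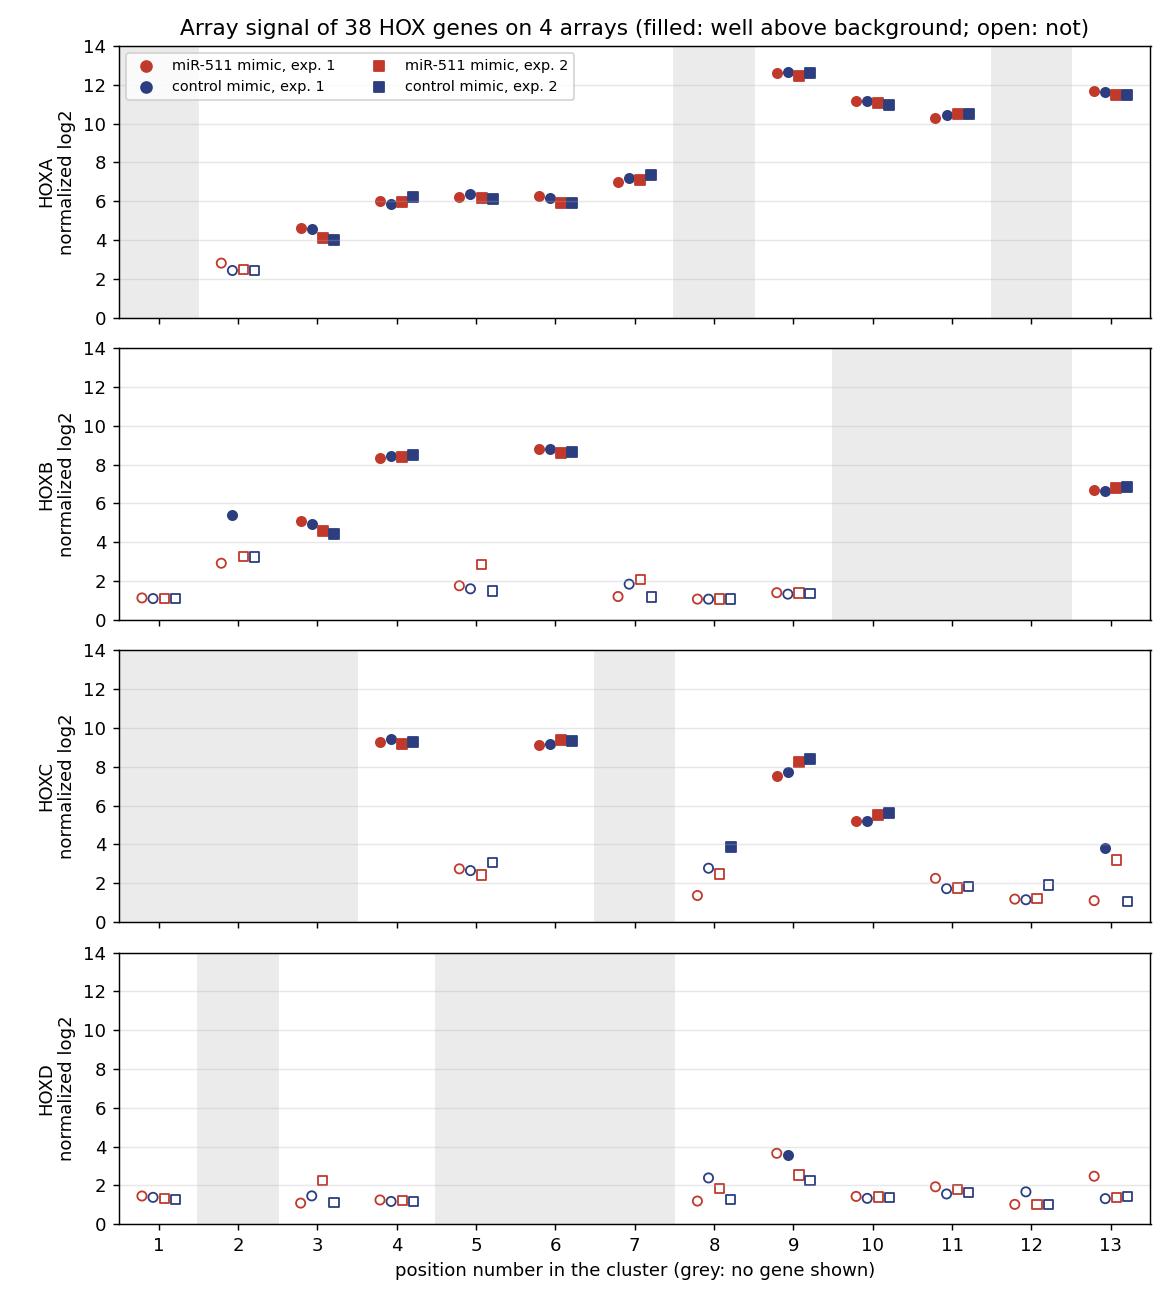
Normalized log2 signal (vertical axis) of the followed probe of 38 of the 39 HOX genes by position number in the cluster (horizontal axis), with 1 point per array, red for miR-511 mimic, blue for control mimic, circles for experiment 1 and squares for experiment 2. Grey bands are position numbers with no gene shown. Filled points are well above background: HOXA is filled from position 3 to 13, and HOXD has a single filled point, HOXD9 on 1 control array. Probes bind with different strength, so the height of points of different genes is no order of transcript amounts.

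Level ranks are given as the percentile of a probe's signal among all probes of its array. They place the signal on the array and do not order the genes by transcript amount, because probes differ in how well they bind. The posterior HOXA genes, numbered 9 to 13, had the highest percentiles of the family. HOXA9, a driver of progenitor self-renewal in leukemia, measured at chr7:27202588-27202647 (hg19, as all probe positions), lay at a median percentile of 91.8. HOXA13, known for limb and genital development, lay at 86.3 (probe chr7:27236674-27236733). HOXA10, a factor that holds back myeloid maturation, lay at 83.6 (chr7:27211235-27211294), and HOXA11, known for limb and uterus development, at 79.1 (chr7:27220776-27220835). The middle genes HOXA4, HOXA5, HOXA6 and HOXA7 lay at 48.5, 49.9, 48.8 and 56.0, and HOXA3 at 38.0.

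Outside HOXA, the percentile was 70.7 for HOXC4 and 70.4 for HOXC6, factors of lymphoid and early blood cells and of trunk patterning. It was 66.7 for HOXB6 and 64.5 for HOXB4, a factor known to expand blood stem cells. HOXC9 lay at 61.6, HOXB13, a factor of prostate and tail development, at 53.4, HOXC10 at 44.8 and HOXB3 at 40.7. Over the 4 arrays, the percentile of HOXA9 ran from 91.0 to 91.9, and that of HOXC9, the widest range among these genes, from 58.4 to 64.3.

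CpG dinucleotides in promoters are given because HOX clusters are rich in them and are bound by CpG-reading complexes of the MLL and Polycomb groups. RefSeq (GRCh38.p14) gave 26 distinct start sites for 20 of the 39 genes, since HOXC4 and HOXC5 are listed with the same one. In the 250 bases before the start, searched for CG, which reads the same on both strands, the median was 19.5 for HOX and 11 for all 35116 promoters of the table. Leaving out the shared start, it was 19 over 15 promoters of 8 detected HOX genes and 21 over 10 promoters of 10 HOX genes that were not detected on all arrays. HOXA3 alone gave 7 of the 15, with a median of 11, and the median of the other 8 was 25. The 8 detected genes were all of HOXA, and the 10 not detected were HOXA2, HOXB1 and genes of HOXD. Detection and cluster can therefore not be told apart in these medians, and no detected HOXB gene was covered. The letters TATAAA, on either strand, were found in 5 of 26 HOX promoters (19.2%) and in 3763 of all 35116 promoters.

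Below are the 250 bases before the start of 2 genes with signal (HOXA9 and HOXA13) and 2 without (HOXB1 and HOXD10), with each CG in capitals. They were chosen after the signal was seen, to show detected and undetected genes side by side.

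HOXA9, chr7:27165538-27165787, minus strand: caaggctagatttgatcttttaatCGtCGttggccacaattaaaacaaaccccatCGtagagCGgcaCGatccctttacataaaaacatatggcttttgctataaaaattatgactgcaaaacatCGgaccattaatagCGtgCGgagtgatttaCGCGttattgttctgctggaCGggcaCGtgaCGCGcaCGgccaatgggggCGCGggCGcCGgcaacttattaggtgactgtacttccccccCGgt

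HOXA13, chr7:27200092-27200341, minus strand: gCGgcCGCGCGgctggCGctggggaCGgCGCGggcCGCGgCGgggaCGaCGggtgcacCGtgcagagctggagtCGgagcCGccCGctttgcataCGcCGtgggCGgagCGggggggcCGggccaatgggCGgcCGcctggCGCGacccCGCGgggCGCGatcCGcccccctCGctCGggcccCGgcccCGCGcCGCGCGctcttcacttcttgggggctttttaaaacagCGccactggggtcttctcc

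HOXB1, chr17:48531012-48531261, minus strand: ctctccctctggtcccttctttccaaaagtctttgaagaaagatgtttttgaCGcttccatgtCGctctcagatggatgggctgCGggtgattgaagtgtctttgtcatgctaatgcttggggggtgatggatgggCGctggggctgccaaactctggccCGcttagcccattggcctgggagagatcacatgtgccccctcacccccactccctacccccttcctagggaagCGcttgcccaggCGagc

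HOXD10, chr2:176116528-176116777, plus strand: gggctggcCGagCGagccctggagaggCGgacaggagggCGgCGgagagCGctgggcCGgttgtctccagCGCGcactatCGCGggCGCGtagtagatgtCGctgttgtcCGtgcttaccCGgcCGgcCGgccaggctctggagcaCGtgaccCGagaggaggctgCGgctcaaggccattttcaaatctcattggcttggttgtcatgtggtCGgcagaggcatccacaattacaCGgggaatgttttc

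HOXA13 had 40 CG, a number reached by 2.16% of all promoters, and HOXA9 had 20. HOXB1 had 7 and HOXD10 had 23. Because these 4 windows were chosen with the signal known, nothing on signal and number of CG is drawn from them.

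For the comparison of miR-511 and control mimic, 19 HOX probes of 17 genes were among the 22638 probes tested, the set whose signal reached that mark on both arrays of either treatment. None of the 19 passed an unadjusted p of 0.05 in limma, the first of the criteria in the study's methods. Its further criterion, on identical replicate probes, was not applied here. Of all tested probes 2.20% passed it, 211 lower and 287 higher with miR-511, and none passed after Benjamini-Hochberg adjustment (smallest adjusted p in limma 0.790). The smallest unadjusted p among HOX probes in limma was 0.128, for HOXA7, and all adjusted values rounded to 1.00. With 2 arrays against 2, an exact permutation test of 1 gene cannot give a two-sided p below 0.333. The independent experiments give the spread, and it holds 2 values per treatment.

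By the log2 fold change (log2FC), miR-511 minus control, 12 of the 17 genes (70.6%) had values below 0 and 5 above, against 46.3% below 0 among all tested probes. Without the filter on dim probes, 20 of the 39 genes were below 0. The median was -0.04, against 0.01 for all tested probes, and the median size without sign was 0.05, against 0.08. Both experiments gave a lower value with miR-511 for 6 genes (35.3%), HOXA7, HOXA9, HOXA11, HOXB4, HOXC4 and HOXC9, against 21.7% of all tested probes. For 3 genes, HOXA3, HOXA13 and HOXB3, both gave a higher one, and for 8 the experiments had opposite signs. The size exceeded its standard error in 3 of the 17 genes and exceeded 2 standard errors in 0. In 14 of the 17, the 95% interval of the difference on the followed probe stayed within a fold of 1.5 in either direction. In HOXA3, HOXB3 and HOXC9 it was wider, as it was on the second HOXA10 probe. The standard errors include the difference between experiments. With the experiment as a replicate block, the size exceeded its standard error in 6 genes and 2 standard errors in 2, HOXA7 and HOXC9, and the smallest unadjusted p was 0.0646 (limma, HOXA7). The unadjusted p from limma for HOXC9 was then 0.100, in place of 0.616, and for HOXB3 0.181, in place of 0.646, so no HOX call changed.

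**Figure D2:**
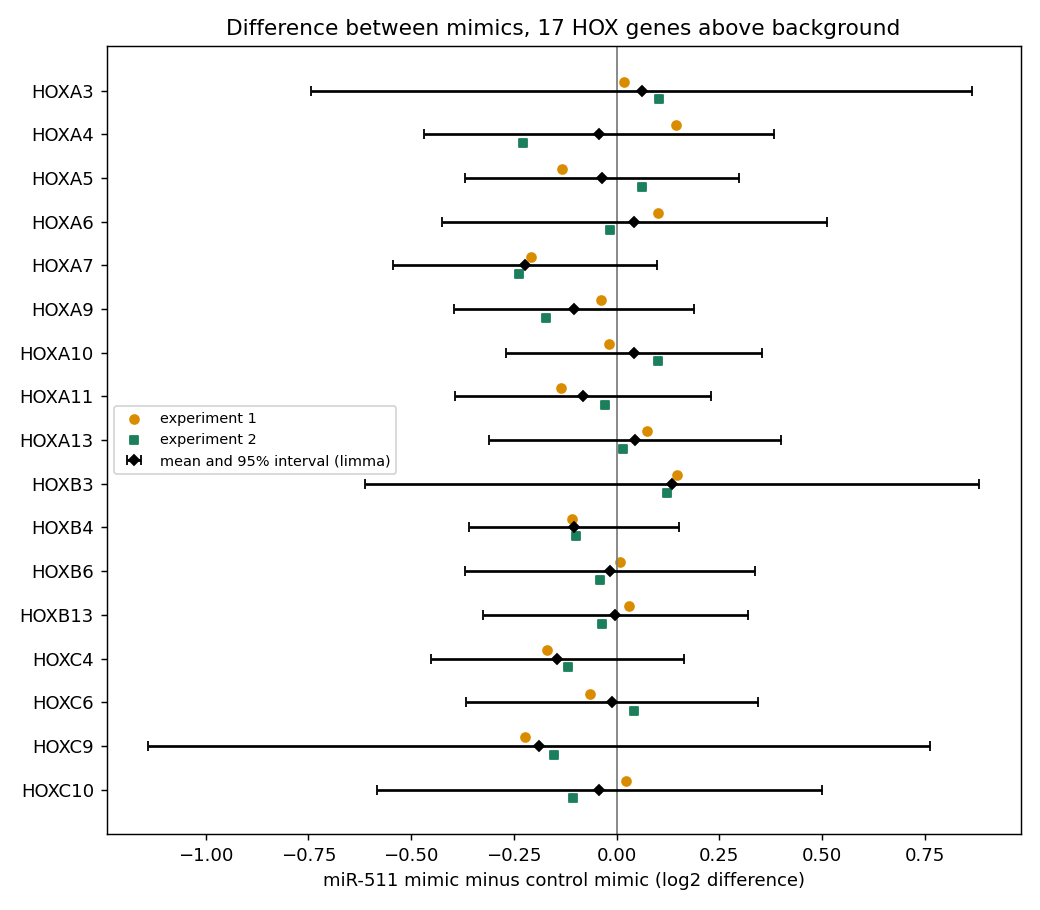
Difference in log2 signal between miR-511 and control mimic (horizontal axis) for the 17 HOX genes above background (vertical axis), with orange circles for experiment 1, green squares for experiment 2, and black diamonds with bars for the mean and its 95% interval from limma. Every interval includes 0, and HOXA7 lies farthest from 0 with 2 nearly equal differences.

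Among the posterior HOXA genes, HOXA9 had a signal of 12.62 (experiment 1) and 12.45 (experiment 2) with miR-511 and of 12.66 and 12.62 with the control mimic. The log2FC was -0.10 (SE 0.11, 95% interval -0.40 to 0.19, n = 2 and 2 arrays, unadjusted p from limma 0.380). Both miR-511 values were below both control values, although to 2 decimals the ranges met at 12.62. The second HOXA9 probe, at chr7:27203145-27203204, read 10.05 and 10.02 with miR-511 and 10.13 and 10.09 with the control mimic. Here too both miR-511 values lay below both control values, by a log2FC of -0.07 (SE 0.09), so both probes of HOXA9 gave small negative differences within their error.

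HOXA10 was read by 2 probes that did not give the same picture. The followed probe read 11.15 and 11.07 with miR-511 and 11.17 and 10.97 with the control mimic, with a log2FC of 0.04 (SE 0.11). These values overlapped. The second probe has 60 bases but spans 1235 bases of the genome, chr7:27211789-27213023, as a probe across a spliced gap does, and is shown because it alone among the tested HOX probes had a difference larger than 0.5 in an experiment.

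HOXA10 second probe: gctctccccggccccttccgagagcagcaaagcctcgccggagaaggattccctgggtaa

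It read 10.13 with miR-511 and 10.85 with the control mimic in experiment 1, and 10.92 and 10.94 in experiment 2. The difference was -0.72 in experiment 1 and -0.02 in experiment 2, for a log2FC of -0.37 (SE 0.29, unadjusted p from limma 0.270). One array was low, the miR-511 array of experiment 1, and the other 3 lay close together. Without that array the log2FC was 0.03. Of the 19 tested HOX probes it was the 1 that was lower on that array than on each other array by more than 0.5, as 3.05% of all tested probes were. Without the miR-511 array of experiment 2 the log2FC was -0.76 and passed the unadjusted threshold in limma (unadjusted p from limma 0.00667), so its call rests on the array that stands apart. The part of that array's quality in the value was not tested.

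HOXA11 read 10.29 and 10.48 with miR-511 and 10.43 and 10.51 with the control mimic, with a log2FC of -0.08 (SE 0.11). HOXA13 read 11.70 and 11.48 with miR-511 and 11.63 and 11.47 with the control mimic, with a log2FC of 0.05 (SE 0.13). In both genes the values of the treatments overlapped. For HOXA13 the arrays of experiment 1 were the 2 higher ones in either treatment.

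**Figure D3:**
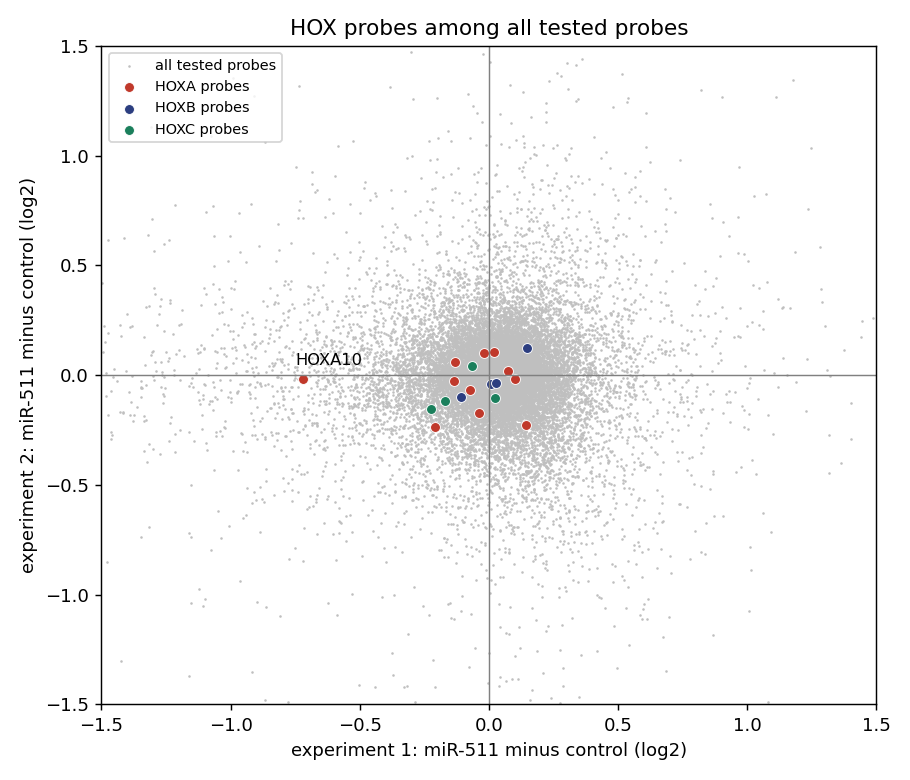
Difference between miR-511 and control mimic in experiment 1 (horizontal axis, log2) and experiment 2 (vertical axis, log2) for the tested probes, grey for all and coloured for the 19 HOX probes by cluster, with 264 of 22638 probes beyond 1.5 in either direction not drawn. HOX probes lie in the centre of the cloud, except the second HOXA10 probe, which is at -0.72 in experiment 1 and near 0 in experiment 2. The arrays of each experiment are different, and no correlation is drawn from the plot.

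Of the middle HOXA genes, which are used in early blood progenitors, HOXA7 had the smallest unadjusted p in the comparison of all 4 arrays. Its probe, at chr7:27194431-27194490, read 6.97 and 7.11 with miR-511 and 7.18 and 7.35 with the control mimic. The difference was -0.21 in experiment 1 and -0.24 in experiment 2, for a log2FC of -0.22 (SE 0.12, 95% interval -0.54 to 0.10, unadjusted p from limma 0.128). Both miR-511 values were below both control values. The difference did not pass the threshold, and the interval holds 0 as well as a fall to 0.686 of the control level. After normexp background correction the log2FC was -0.12, and without single arrays it ran from -0.31 to -0.14. HOXA4, a neighbour in the cluster and the gene with a 6-base seed match in its probe, read 5.98 on both miR-511 arrays and 5.84 and 6.21 with the control mimic. Its differences had opposite signs, 0.14 and -0.23, and the log2FC was -0.04 (SE 0.16).

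HOXA5, a factor known in myeloid and lung development, read 6.22 and 6.17 with miR-511 and 6.35 and 6.11 with the control mimic, with a log2FC of -0.04 (SE 0.12). HOXA6 read 6.25 and 5.89 with miR-511 and 6.14 and 5.91 with the control mimic, with a log2FC of 0.04 (SE 0.17). HOXA3, a factor of pharyngeal and vessel development at the low end of the detected row, read 4.61 and 4.08 with miR-511 and 4.59 and 3.98 with the control mimic, with a log2FC of 0.06 (SE 0.29). In all of these the treatments overlapped, and for HOXA3 and HOXA6 the arrays of experiment 1 were the higher ones in both treatments.

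In HOXB, HOXB4 had the smallest standard error of the 17 genes. It read 8.34 and 8.41 with miR-511 and 8.45 and 8.51 with the control mimic (probe chr17:46653132-46653191). The differences were -0.11 and -0.10, for a log2FC of -0.10 (SE 0.09, 95% interval -0.36 to 0.15). The experiments thus gave nearly the same small difference, and the ranges of the treatments did not overlap. Across all tested probes, both experiments lay below 0 in 21.7%, so a pair of negative differences is not rare. HOXB6, a factor of early erythroid and myeloid progenitors, read 8.82 and 8.61 with miR-511 and 8.81 and 8.65 with the control mimic, with a log2FC of -0.02 (SE 0.13).

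HOXB3, which acts with HOXB4 in blood stem cells, read 5.09 and 4.55 with miR-511 and 4.94 and 4.43 with the control mimic, with a log2FC of 0.13 (SE 0.27). HOXB13 read 6.68 and 6.80 with miR-511 and 6.65 and 6.84 with the control mimic, with a log2FC of 0.00 (SE 0.12). Both genes overlapped between treatments. HOXB13 lies apart from the other HOXB genes, and of the genes between it and HOXB6, none of HOXB7, HOXB8 and HOXB9 reached that mark on any array.

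In HOXC, all 4 detected genes had a log2FC below 0, as had 46.3% of all tested probes, with a median of -0.09, and none passed the test. HOXC4 read 9.29 and 9.17 with miR-511 and 9.46 and 9.29 with the control mimic (probe chr12:54449755-54449814), with a log2FC of -0.14 (SE 0.11, 95% interval -0.45 to 0.16). Both miR-511 values were below both control values, although to 2 decimals the ranges met at 9.29, and the differences within the experiments were -0.17 and -0.12. With the replicate block the SE was 0.08. HOXC6 read 9.12 and 9.36 with miR-511 and 9.19 and 9.32 with the control mimic, with a log2FC of -0.01 (SE 0.13).

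HOXC9, which marks the trunk, read 7.52 and 8.24 with miR-511 and 7.75 and 8.40 with the control mimic, with a log2FC of -0.19 (SE 0.35). HOXC10, known for hindlimb motor neurons, read 5.23 and 5.52 with miR-511 and 5.21 and 5.63 with the control mimic, with a log2FC of -0.04 (SE 0.20). In both genes, each array of experiment 2 was above each array of experiment 1, in either treatment.

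The larger differences in the family lay between the experiments. In 9 of the 17 genes (52.9%), experiment 2 differed from experiment 1 in the same direction with both mimics and by more than either difference between mimics, against 23.0% of all tested probes. The genes were HOXA3, HOXA6, HOXA13, HOXB3, HOXB6, HOXB13, HOXC6, HOXC9 and HOXC10. No test was run on this count, which compares single arrays.

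HOXC9 was higher in experiment 2 by 0.65 with the control mimic and by 0.72 with miR-511, and HOXC10 by 0.42 and 0.29. HOXA3 changed by -0.61 and -0.53, and HOXB3 by -0.51 and -0.54. Genes of one family thus differed in opposite directions between the experiments, while the differences between mimics in these 4 genes were at most 0.22 in size. What set the experiments apart, in culture or in array handling, cannot be told apart here.

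**Figure D4:**
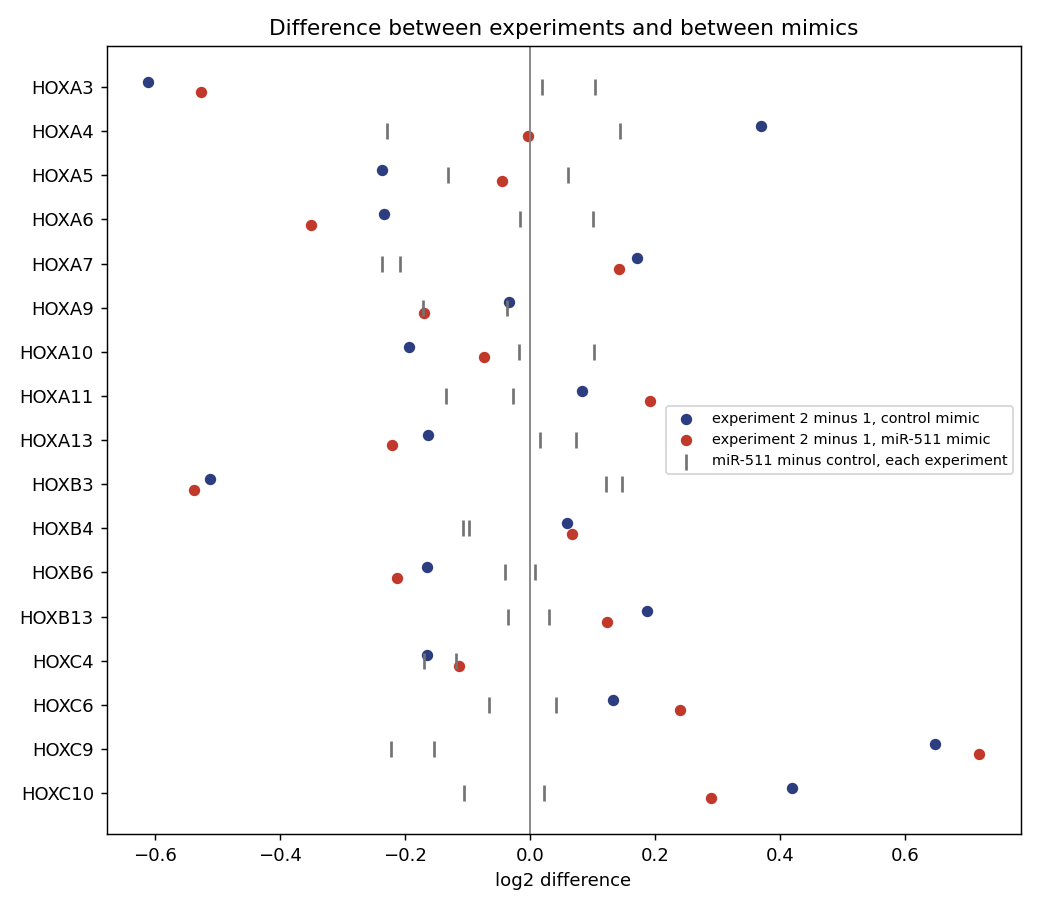
Log2 differences (horizontal axis) of the 17 detected HOX genes (vertical axis), with circles for experiment 2 minus experiment 1 (blue for control mimic, red for miR-511 mimic) and grey ticks for miR-511 minus control in each experiment. For HOXA3, HOXB3, HOXC9 and HOXC10 both circles lie farther from 0 than both ticks, and for HOXA7 and HOXB4 the ticks do.

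The 22 HOX genes that were not detected on all arrays had followed signals from 1.01 to 5.40, on a scale where HOXA9 read up to 12.66. On 6 of them, HOXB1, HOXB8, HOXB9, HOXD1, HOXD4 and HOXD10, all 4 arrays held the surrogate value that the scanner software sets when a spot is not brighter than its background, and 18 of the 22 held it on at least 1 array. Such values cannot give the size of a difference. Not well above background on any array were HOXA2, HOXB1, HOXB5, HOXB7, HOXB8, HOXB9, HOXC5, HOXC11, HOXC12 and all HOXD genes other than HOXD9.

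Among the 5 genes detected on a single array were HOXB2, HOXC8, HOXC13 and HOXD9, and that array was a control array in all 5. Of all 1193 probes on the array that were detected on 1 array only, the array was a control array in 73.9%, with 673 on the control array of experiment 1 alone. HOXB2, HOXC13 and HOXD9 were detected on that array and HOXC8 on the control array of experiment 2.

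HOXC8, a trunk gene, read 1.37 and 2.47 with miR-511 and 2.77 and 3.88 with the control mimic (chr12:54406311-54406370). The control array read higher in each experiment, and HOXC8 was singled out after this was seen. It held the surrogate value on the miR-511 array of experiment 1 and was above background on 1 array, so no size of a difference and no test is given for it. HOXB2 read 5.40 on the control array of experiment 1 and 2.92, 3.27 and 3.23 on the others, so that a single array carried its detection. HOXC13 read 3.82 there, 3.19 with miR-511 in experiment 2 and 1.10 and 1.07 on the remaining arrays.

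HOX proteins bind DNA with TALE homeodomain partners of the MEIS, PBX and PKNOX families. Of 9 such genes, 6 were well above background on all 4 arrays and 0 of their 7 tested probes passed the unadjusted threshold, against 63.4% of all probes detected on all arrays and 2.20% of tested probes past the threshold, so a count of 0 says little here. PBX3, the partner of HOXA9 in many leukemias, read 12.43 and 12.40 with miR-511 and 12.48 and 12.54 with the control mimic. MEIS1 had its brighter probe at 4.25 with miR-511 and 4.14 with the control mimic in experiment 1, and at 1.92 and 2.53 in experiment 2, and was well above background on 2 arrays only. On that PBX3 probe both miR-511 values were below both control values, with a log2FC of -0.10 (SE 0.09), while its second probe overlapped, with 11.41 and 11.57 with miR-511, 11.53 and 11.56 with the control mimic and a log2FC of -0.05 (SE 0.11). The brighter MEIS1 probe read lower in experiment 2 than in experiment 1 with both mimics, and was not well above background in experiment 2. The other MEIS1 probe was well above background on no array. It read 1.49 and 1.23 with miR-511 and 1.21 and 1.34 with the control mimic.

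Of the caudal genes, which switch on middle and posterior HOX genes, CDX1 was detected on all arrays and CDX2 and CDX4 on none. Its brighter probe read 6.50 with miR-511 and 7.80 with the control mimic in experiment 1, and 7.92 and 7.81 in experiment 2, with a log2FC of -0.59 (SE 0.50) that was 0.12 (SE 0.13) without the miR-511 array of experiment 1. As with the second HOXA10 probe, the low value was on the miR-511 array of experiment 1. The other CDX1 probe lay between 1.73 and 2.39.

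Of the genes that keep HOX clusters on, the trithorax side with MLL, MEN1, DOT1L and WDR5, all 9 were well above background on all arrays, and 0 of 17 probes passed the unadjusted threshold. Of the genes that keep them silent, the Polycomb side with EZH2, EED, SUZ12 and BMI1, all 13 were, and 0 of 21 probes passed. Of all probes on the array, 63.4% were well above background on all 4 arrays, a share by probe and not by gene. Against the 2.20% of all tested probes that passed, counts of 0 among so few probes set these lists apart in no way. The trithorax list held MLL and MLLT3 (AF9), the genes fused in THP1. Which of their probes also read the fusion transcript was not analysed here. Of the noncoding transcripts of the clusters, HOXA11-AS1, transcribed opposite HOXA11, was well above background with 12.75 and 12.54 with miR-511 and 12.87 and 12.61 with the control mimic, a log2FC of -0.09 (SE 0.15). HOTAIR of the HOXC cluster was well above background on no array, as was PRAC, a protein-coding gene beside HOXB13 that the list also held. In bulk RNA, fewer cells that express a gene and less RNA per cell cannot be told apart.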

How the data were processed

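Total RNA of 4 THP1 samples was measured on single-dye Agilent whole genome arrays, 1 array each. The authors deposited scanner files whose processed intensity is background-subtracted and not normalized between arrays (Feature Extraction, version 10.5.1.1 per the submitters' processing notes and 10.7.3.1 per the file headers), and a table of log2 values, quantile normalized, used here as an alternative. From the deposited intensity, log2 was taken for 43118 non-control spots, 232 to 301 marked spots per array were left out, arrays were quantile normalized and a probe's spots averaged. HOXD1, printed 10 times, counted as detected when more than 50% of its spots were. limma 3.58.1 in R 4.3.3 compared treatments over all 22638 tested probes (4.14 degrees of freedom, two-sided, unadjusted p below 0.05 and Benjamini-Hochberg). The fit was tested on simulated data, but the outcome is not reported here. Members and lists were chosen with earlier results of these data known. Every HOX gene was counted, with values per array for those detected on all 4 arrays. The values of 1 member are not reported here. All 43 HOX probes matched RefSeq (GRCh38.p14) by accession with the same symbol. Probe positions are hg19, per the file headers. The experiment number, given by the labels, pairs the arrays (correlation of deviations 0.271), and all came from 1 slide. The paper's other experiments, HOTAIRM1, HOTTIP, HAGLR, MIR10A, MIR196A1, LYZ and FCGR1A were not analysed here. Precision is limited by the number of arrays.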

Additional observations from a re-analysis of the deposited data

How the results depend on the processing

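Alternatives were 75th percentile scaling, normexp background correction, dropping or tightening the filter on dim probes, using the authors' table, retaining marked spots, an intensity trend, a plain two-sided test per probe, the replicate block and leaving out each array. None of these but 1 called a HOX probe. Without the miR-511 array of experiment 2, the second HOXA10 probe was called, so the count of HOX calls ran from 0 to 1 when single arrays were left out. With the experiment as replicate block, 894 of all tested probes were called, in place of 498, and 0 HOX probes. The count over all probes was 265 after normexp, 1029 without the filter and 285 with the trend, and ran from 516 to 1379 without single arrays. The HOX median log2FC of -0.04 was -0.049 after 75th percentile scaling and -0.0032 over 39 genes without the filter, and ran from -0.078 to -0.041 without single arrays. The cause was not tested, except that no filter adds genes near background. HOX genes counted as detected were 17, and 17 to 22 under other rules. Over 9 settings with all arrays, 168 of 171 log2FC values of the 19 HOX probes kept their direction and side of the threshold, and HOXA3 (-0.028), HOXA5 (0.0068) and HOXC6 (0.014) turned after normexp. Most of this was fixed in advance. Both filter changes, the replicate block, the trend and the plain test use the same normalized values, so they cannot alter a log2FC. In those settings only the side of the threshold could change. Normexp also moved other values by over 1.5 times, to -0.12 for HOXA7, -0.05 for HOXA9, -0.03 for HOXA11, 0.10 for HOXA13, -0.10 for HOXC9 and 0.01 for HOXB3 among others, and HOXC4, at -0.14, was then farther from 0 than HOXA7. Of the 17 genes, 10 to 12 were below 0 in all settings that kept the filter, and 20 of 39 without it. Leaving out single arrays turned the sign of 14 of the 19 probes, with ranges of -0.24 to 0.37 for HOXA3, -0.23 to 0.14 for HOXA4, -0.15 to 0.083 for HOXA5, -0.13 to 0.22 for HOXA6, -0.055 to 0.14 for HOXA10, -0.76 to 0.026 for its second probe, -0.18 to 0.014 for HOXA11, -0.065 to 0.16 for HOXA13, -0.13 to 0.40 for HOXB3, -0.12 to 0.090 for HOXB6, -0.097 to 0.091 for HOXB13, -0.13 to 0.11 for HOXC6, -0.55 to 0.17 for HOXC9 and -0.25 to 0.17 for HOXC10. The other 5 probes stayed below 0, from -0.31 to -0.14 for HOXA7, -0.19 to -0.02 for HOXA9, -0.09 to -0.05 for its second probe, -0.14 to -0.07 for HOXB4 and -0.23 to -0.06 for HOXC4. Treatments left with 1 array were assumed to vary like the other. Genes near background have no measurable change.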
